A study of Mus musculus with 10 samples.

Results

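Mast cell genes, 10 of the 22180 genes measured, were described in Ezh2-/- and Ezh2+/+ mammary tumours of the mouse. They encode the granule proteases Mcpt4, Cma1, Tpsb2 and Cpa3, the histamine-forming enzyme Hdc, the IgE receptor chains Fcer1a and Ms4a2, the receptors Kit and Mrgprb1, and the transcription factor Gata2. They were chosen by name as known mast cell genes, with earlier results of these data known. Each was represented by 1 probe set that carried its symbol alone. The samples were 5 Ezh2-/- and 5 Ezh2+/+ tumours of the Tet-ON PyVmT model, and the sources do not say whether each tumour came from a different mouse. In both groups, female FVB mice, induced as young adults, carried a reverse tetracycline transactivator under the MMTV promoter and a doxycycline-inducible transgene that encodes both polyomavirus middle T and Cre, and they received doxycycline in their drinking water. In the Ezh2-/- group Cre also deleted conditional alleles of Ezh2, the methyltransferase of Polycomb repressive complex 2, but only in mammary epithelium. By this design Cre is not made outside the epithelium, and these arrays do not measure Ezh2 RNA of the other tumour cells separately. In the paper's staining of endpoint Ezh2-/- tumours, the histone mark that Ezh2 sets, H3K27me3, was seen only in cells without the epithelial marker CK8. Whole tumours were frozen at endpoint, which the paper set by total tumour volume, and the sample titles give no age. The paper reports a later tumour onset in Ezh2-/- mice. Age and time on doxycycline may therefore differ between the groups and cannot be told apart from genotype. Total RNA of each tumour was measured on 1 Mouse Gene 2.0 ST array from Affymetrix.

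Mast cells are tissue-resident leukocytes that mature under the growth factor Kitl and its receptor Kit. They store histamine, heparin and proteases in granules and release them when antigen crosslinks IgE on the high-affinity receptor. Connective tissue mast cells of the mouse hold Mcpt4, Cma1, Tpsb2 and Cpa3, whereas mucosal mast cells hold Mcpt1 and Mcpt2.

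Ezh2 was measured first as a check of the genotypes. Its level was 6.46, 6.36, 6.38, 6.42 and 6.50 in Ezh2-/- tumours 1 to 5, against 7.63, 7.66, 6.98, 7.69 and 7.33 in Ezh2+/+ tumours 1 to 5 (log2 scale). All 5 Ezh2-/- tumours lay below all Ezh2+/+ tumours. Throughout, values are levels on the log2 scale listed from replicate 1 to replicate 5, and differences are log2 fold changes of Ezh2-/- over Ezh2+/+ tumours from limma with its standard error (SE). To be called higher or lower, a gene needed an adjusted p under 0.05 over all 22180 genes. The median over all probe sets was 4.35 to 4.46 in Ezh2-/- arrays and 4.54 to 4.67 in Ezh2+/+ arrays, and no further scaling was applied. Ezh2-/- replicates 1 and 5 stood apart by skeletal muscle transcripts, with Acta1 at 11.1 and 9.87, against 5.87 to 6.94 in Ezh2+/+ tumours.

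Of the 10 mast cell genes, 1 was higher in Ezh2-/- tumours (Mcpt4), 1 was lower (Hdc) and 8 did not pass. Over all genes, 7.29% were called higher and 7.56% lower, so that 1 of 10 in each direction is near the background. The median log2 fold change of the 10 genes was 0.38, against 0.03 over all genes, and 7 were positive. In limma 6 of the 10 were higher and 1 lower at an unadjusted p under 0.05, where 18% of all genes were higher and 15.6% lower. Because the genes were chosen with earlier results of these data known, such counts are no test of the list. Under the study's own thresholds, an unadjusted p under 0.05 from one-way ANOVA and a fold change over 1.5, 3 of the 10 were higher (Mcpt4, Tpsb2 and Cpa3) and 0 lower, where 4.79% of all genes were higher and 4.28% lower. In that ANOVA 0 of 10 passed in either direction after adjustment over all genes, with 4 higher and 1 lower at an unadjusted p under 0.05 (16.1% and 15% of all genes). The differences did not all share a sign. The proteases had positive and Hdc, Ms4a2 and Gata2 negative differences, but Ms4a2 and Gata2 did not pass. The sign of Ms4a2 turned under each of 3 rescalings and that of Gata2, among these, under median centring alone. By mean level over all tumours, Mcpt4, Cma1, Hdc, Fcer1a, Ms4a2 and Mrgprb1 were among the dimmest 40% of genes on these arrays, up to 4.56. Cpa3 was above that cut by its mean, although its Ezh2+/+ tumours were at 3.41 to 4.48. In bulk tumour RNA, fewer cells of a type and less RNA per cell cannot be told apart.

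**Figure D1:**
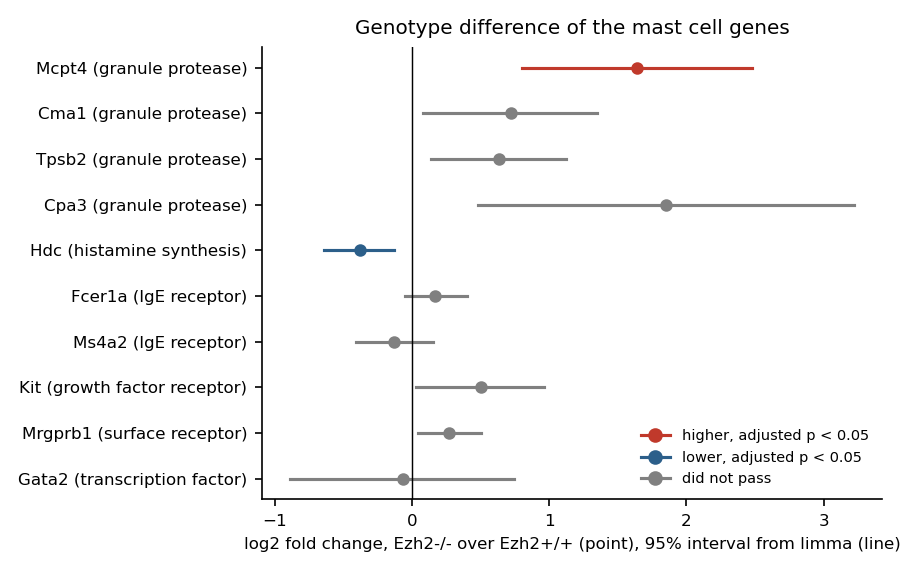
Log2 fold change of the 10 mast cell genes in Ezh2-/- over Ezh2+/+ tumours (points, horizontal axis) with 95% confidence intervals from limma (lines). Mcpt4 at 1.64 and Hdc at −0.38 passed, and Cpa3 at 1.85 had the widest interval, from 0.48 to 3.22.

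The granule proteases carried the largest differences, and the start regions of their genes are shown for the sequences they have in common. Promoter windows from 250 bases before to 50 bases after the annotated start were taken from RefSeq (GRCm38.p6), which held windows for 9 of the 10 genes and none for Tpsb2. Each was searched on both strands for the GATA motif, the letters bound by Gata1 and Gata2 in blood cells. It was spelled AGATAA, with a first T as TGATAA, with a last G as AGATAG, and with both changes as TGATAG. The windows were likewise searched for TATAAA, for the E-box of Mitf, spelled CACATG or in its palindromic form CACGTG, and for the core motif of PU.1, spelled GAGGAA. In the next lines capitals mark the GATA motif. The windows are chr14:56062261-56062560 for Mcpt4, chr14:55944626-55944925 for Cma1 and chr3:20242132-20242431 for Cpa3, all on the minus strand and written 5′ to 3′ along the gene.
Mcpt4: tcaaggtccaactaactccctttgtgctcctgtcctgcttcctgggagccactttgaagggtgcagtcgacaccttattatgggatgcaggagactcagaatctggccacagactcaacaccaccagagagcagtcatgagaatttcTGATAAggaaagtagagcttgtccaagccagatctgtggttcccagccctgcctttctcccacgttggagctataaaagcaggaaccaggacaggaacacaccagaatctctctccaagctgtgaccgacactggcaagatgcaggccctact
Cma1: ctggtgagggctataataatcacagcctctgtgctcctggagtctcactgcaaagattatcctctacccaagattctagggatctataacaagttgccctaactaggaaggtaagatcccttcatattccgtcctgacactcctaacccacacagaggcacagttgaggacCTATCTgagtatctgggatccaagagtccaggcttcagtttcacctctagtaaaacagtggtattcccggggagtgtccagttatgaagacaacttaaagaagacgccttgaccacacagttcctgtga
Cpa3: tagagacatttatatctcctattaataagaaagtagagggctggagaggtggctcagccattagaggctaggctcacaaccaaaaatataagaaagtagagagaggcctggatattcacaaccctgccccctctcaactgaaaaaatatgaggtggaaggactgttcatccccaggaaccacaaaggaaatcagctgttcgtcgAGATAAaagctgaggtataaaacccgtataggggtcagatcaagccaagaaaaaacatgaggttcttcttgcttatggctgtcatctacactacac

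Mcpt4 held TGATAA from −103 and TATAAA from −32 relative to its start, and Cpa3 held AGATAA from −46 and TATAAA from −31, with a further TATAAA on the opposite strand from −242. Cma1 held AGATAG from −79 on the opposite strand, where the printed strand reads CTATCT, and had no TATAAA match. The GATA motif was found for 7 of the 9 genes with a window, namely these proteases, Hdc, Fcer1a, Ms4a2 and Mrgprb1, and not in the 2 windows each of Kit and Gata2. Counted by window, 7 of the 11 windows of these genes held the motif, against 29.8% of all 32851 windows. TATAAA was in windows of 3 of the 9 genes, those of Mcpt4, Cpa3 and Fcer1a. These were 3 of the 11 windows, against 13.6% of all windows. The PU.1 core was in windows of 2 genes, Kit and Fcer1a, and the E-box in that of Fcer1a alone. By window these were 3 and 1 of 11, against 28.3% and 20.4% of all windows. No GATA match overlapped a match to another motif. These matches describe letters in the windows, and whether a factor binds there was not measured.

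**Figure D2:**
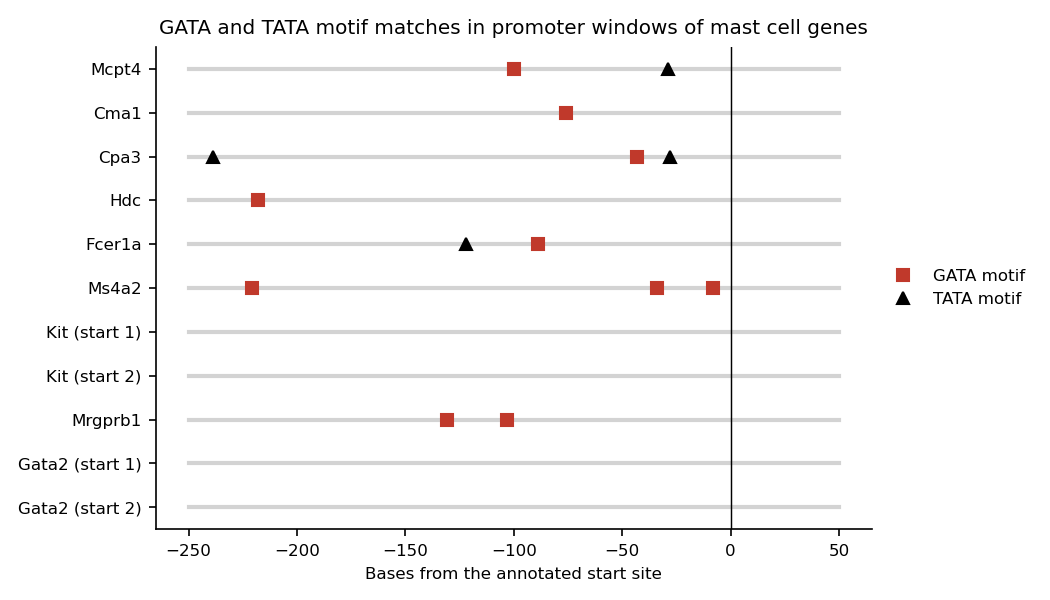
Position of GATA motif matches (squares) and TATAAA matches (triangles) in bases from the annotated start (horizontal axis) for the promoter windows of 9 mast cell genes, with 2 start sites each for Kit and Gata2. Mcpt4 and Cpa3 have a GATA match upstream of a TATAAA match that begins at −32 and −31.

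Mcpt4 encodes a chymase, the mouse protease closest in function to human chymase. Its level was 4.36, 2.76, 3.18, 5.31 and 4.37 in Ezh2-/- tumours, against 2.08, 2.72, 2.24, 2.13 and 2.61 in Ezh2+/+ tumours. Every Ezh2-/- tumour lay above every Ezh2+/+ tumour, although replicate 2 did so by little, and such a separation upward was seen in 5.05% of all genes. The log2 fold change was 1.64 (SE 0.39, adjusted p = 0.0174 from limma). Mcpt4 was dim, above all in Ezh2+/+ tumours. The call held in 10 of 10 fits that left out 1 tumour. It was lost in the ANOVA with adjustment (adjusted p = 0.0667) and without the 2 Ezh2-/- tumours with high muscle transcripts, where the log2 fold change was 1.40 (adjusted p = 0.0594 from limma).

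Cpa3 encodes carboxypeptidase A of the granules, and had the largest difference of the 10 with all tumours included. Its level was 7.26, 3.70, 4.06, 6.56 and 7.06 in Ezh2-/- tumours, against 3.41, 3.97, 3.89, 3.64 and 4.48 in Ezh2+/+ tumours. Replicates 1, 4 and 5 of the Ezh2-/- group lay more than 2 log2 units above the highest Ezh2+/+ tumour, and replicates 2 and 3 within the Ezh2+/+ range. The log2 fold change of 1.85 (SE 0.63) did not pass in limma (adjusted p = 0.0659). It passed without Ezh2-/- replicate 2, at 2.36 (adjusted p = 0.024), and without replicate 3, at 2.27 (adjusted p = 0.0346), whereas it was 1.47 without replicate 1 (adjusted p = 0.133) and 1.52 without replicate 5 (adjusted p = 0.109). Without both tumours high in muscle transcripts it was 0.89 (adjusted p = 0.257), below the 1.40 of Mcpt4.

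Cma1 encodes mast cell chymase of the alpha type. Its level was 4.86, 3.49, 3.27, 4.48 and 4.82 in Ezh2-/- tumours, against 3.71, 3.60, 3.14, 3.29 and 3.57 in Ezh2+/+ tumours. The same 3 Ezh2-/- tumours were above all Ezh2+/+ tumours and the other 2 were among them. Cma1 had a log2 fold change of 0.72 (SE 0.29, adjusted p = 0.109 from limma). Without Ezh2-/- replicate 3 it was 0.95 and passed (adjusted p = 0.037), and without replicates 1 or 5 it was 0.55 or 0.56. Without both of these, the tumours high in muscle transcripts, it was 0.28 (adjusted p = 0.447).

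Tpsb2 encodes a tryptase that is active as a heparin-bound tetramer. Its level was 6.07, 4.67, 4.89, 5.38 and 5.16 in Ezh2-/- tumours, against 4.71, 4.59, 4.41, 4.39 and 4.92 in Ezh2+/+ tumours. Replicates 1, 4 and 5 of the Ezh2-/- group again exceeded every Ezh2+/+ tumour. The log2 fold change was 0.63 (SE 0.22, adjusted p = 0.074 from limma), and it passed without Ezh2-/- replicate 2 (0.77, adjusted p = 0.0473). It also passed after quantile normalization (0.75, adjusted p = 0.0379), after median centring (0.80, adjusted p = 0.0211) and with a replicate block (adjusted p = 0.0452). After cyclic loess it did not pass (0.70, adjusted p = 0.0671). It was 0.42 without Ezh2-/- replicate 1 (adjusted p = 0.116) and 0.38 without both tumours high in muscle transcripts (adjusted p = 0.167). The RNA of Tpsab1, a related tryptase gene, may reach the same probes. Tpsab1 ranged from 3.69 to 4.99 in Ezh2-/- tumours and from 3.86 to 4.49 in Ezh2+/+ tumours (log2 fold change 0.26, adjusted p = 0.433).

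**Figure D3:**
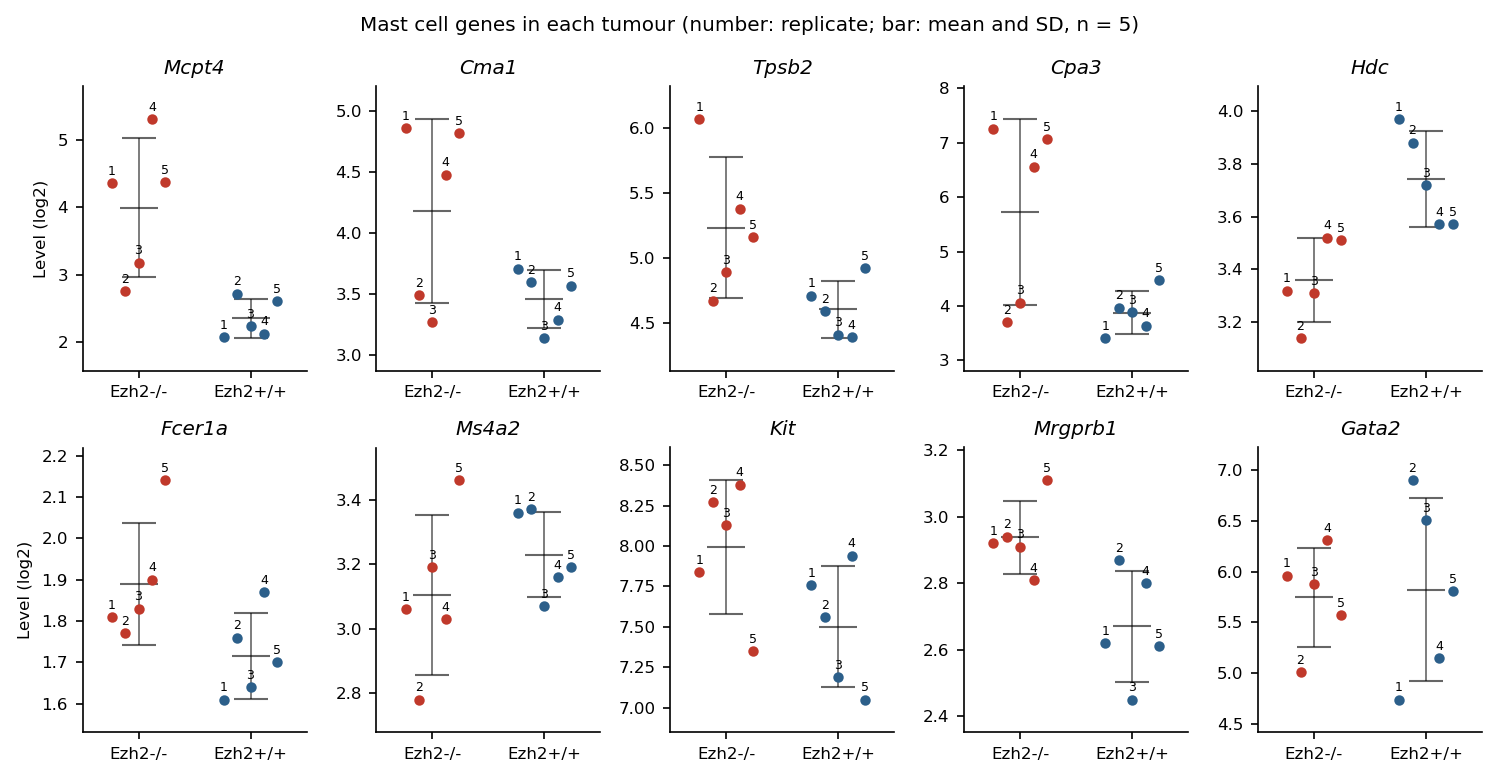
Level (log2, vertical axis, a separate range in each panel) of each mast cell gene in the 5 Ezh2-/- and 5 Ezh2+/+ tumours, numbered by replicate, with mean and SD. Ezh2-/- tumours 1, 4 and 5 are the 3 highest for Mcpt4, Cma1, Tpsb2 and Cpa3, while Hdc lies between 3.14 and 3.52 in Ezh2-/- tumours, all below the Ezh2+/+ tumours.

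All 4 proteases were thus above every Ezh2+/+ tumour in Ezh2-/- tumours 1, 4 and 5, and only Mcpt4 was in Ezh2-/- tumours 2 and 3. Their mean level was 5.64, 3.66, 3.85, 5.43 and 5.35 in Ezh2-/- tumours, against 3.48, 3.72, 3.42, 3.36 and 3.90 in Ezh2+/+ tumours. The Ezh2-/- tumours thus spread from 3.66 to 5.64, the Ezh2+/+ tumours only from 3.36 to 3.90, and this difference in spread was not tested. Mcpt4 and Cma1 lie at the ends of a run of 6 protein-coding genes on chromosome 14, a part of the chymase locus, and all genes of this run were measured. Between them Cma2 had a log2 fold change of −0.13 (adjusted p = 0.698 from limma), Mcpt1 −0.31 (adjusted p = 0.149) and Mcpt9 −0.67 (adjusted p = 0.0749). Mcpt2, a protease of mucosal mast cells, fell by 0.63 (adjusted p = 0.0141). It was at 2.00, 1.70, 1.83, 1.74 and 1.73 in Ezh2-/- tumours, against 2.42, 2.80, 2.01, 2.31 and 2.60 in Ezh2+/+ tumours, and is likewise among the dimmest genes. These genes resemble each other in sequence, and their probes may share signal.

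Hdc encodes histidine decarboxylase, which makes histamine. Its level was 3.32, 3.14, 3.31, 3.52 and 3.51 in Ezh2-/- tumours, against 3.97, 3.88, 3.72, 3.57 and 3.57 in Ezh2+/+ tumours. The groups did not overlap, though 3.52 and 3.57 were the closest values, and 6.63% of all genes were separated in this direction. Hdc had a log2 fold change of −0.38 (SE 0.12, adjusted p = 0.0466 from limma). The call held in only 2 of 10 fits that left out 1 tumour, those without Ezh2-/- replicate 5 and without Ezh2+/+ replicate 4, with −0.43 to −0.33 over the 10. It was also lost under quantile normalization (−0.20), cyclic loess (−0.20) and median centring (−0.21). Hdc was 1 of 6 members that lay among the dimmest 40% of genes. Of these 8872 dim genes 12.7% were called lower and 1.49% higher, with a median log2 fold change of −0.14, against 0.15 in the other genes, and whether this bears on Hdc was not tested.

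The IgE receptor chains did not pass. Fcer1a, the chain that binds IgE, was at 1.81, 1.77, 1.83, 1.90 and 2.14 in Ezh2-/- tumours, against 1.61, 1.76, 1.64, 1.87 and 1.70 in Ezh2+/+ tumours. Fcer1a was among the dimmest genes, 2 Ezh2-/- tumours lay above all Ezh2+/+ tumours, and the log2 fold change was 0.17 (adjusted p = 0.261 from limma). Ms4a2, the signal-amplifying beta chain, was at 3.06, 2.78, 3.19, 3.03 and 3.46 in Ezh2-/- tumours, against 3.36, 3.37, 3.07, 3.16 and 3.19 in Ezh2+/+ tumours. The groups overlapped, and the log2 fold change of −0.13 (95% interval −0.41 to 0.15) turned positive under quantile normalization, cyclic loess and median centring. Mrgprb1, a receptor of the Mas-related family, was at 2.92, 2.94, 2.91, 2.81 and 3.11 in Ezh2-/- tumours, against 2.62, 2.87, 2.45, 2.80 and 2.61 in Ezh2+/+ tumours. 4 of 5 Ezh2-/- tumours exceeded all Ezh2+/+ tumours, and the log2 fold change of 0.27 (SE 0.11, adjusted p = 0.104) passed under quantile normalization (0.40), cyclic loess (0.37) and median centring (0.44).

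Kit, the receptor for stem cell factor, did not follow the proteases. Its level was 7.84, 8.27, 8.13, 8.38 and 7.35 in Ezh2-/- tumours, against 7.76, 7.56, 7.19, 7.94 and 7.05 in Ezh2+/+ tumours. Ezh2-/- tumours 2 and 3, where Cpa3 and Cma1 were low, were the 2nd and 3rd highest for Kit, and Ezh2-/- tumour 5 was the 8th of 10. For Kit the log2 fold change was 0.50 (SE 0.21, adjusted p = 0.128 from limma). It passed with array weights (0.57, adjusted p = 0.0488), without Ezh2-/- replicate 5 (0.66, adjusted p = 0.0327) and without both tumours high in muscle transcripts (0.76, adjusted p = 0.0261). Kit is also expressed by luminal progenitors of the mammary gland and by melanocytes. The mean of 4 luminal progenitor markers was 8.06 to 8.31 in Ezh2-/- tumours, against 8.07 to 8.30 in Ezh2+/+ tumours, and 0 of 4 passed in limma or the ANOVA, with 0 at an unadjusted p under 0.05. Among them the transcription factor gene Elf5 had a log2 fold change of 0.24 (adjusted p = 0.233) and the dehydrogenase gene Aldh1a3 one of −0.51 (adjusted p = 0.238). The mean of 5 melanocyte markers was 3.74 to 4.05 in Ezh2-/- tumours, against 3.83 to 4.52 in Ezh2+/+ tumours, and 0 of 5 passed in limma or the ANOVA, with 2 lower at an unadjusted p under 0.05 in each, the pigment enzyme genes Dct (−0.42, adjusted p = 0.0726) and Tyrp1 (−0.49, adjusted p = 0.0728).

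Gata2 encodes a zinc finger factor needed for mast cell differentiation, and endothelial cells express it too. Its level was 5.96, 5.01, 5.88, 6.31 and 5.57 in Ezh2-/- tumours, against 4.74, 6.90, 6.51, 5.15 and 5.81 in Ezh2+/+ tumours. The highest and the lowest tumour were both Ezh2+/+. For Gata2 the log2 fold change was −0.07 (95% interval −0.89 to 0.74, adjusted p = 0.909 from limma), and its sign turned under median centring and in 3 of the fits that left out 1 tumour.

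Other genes of mast cell biology were counted from 8 lists by role, of which 69 of 74 were measured. Among them 7 were higher, 4 lower and 58 did not pass, with a median log2 fold change of 0.14. Over all genes 7.29% were called higher and 7.56% lower, and the counts per list below stand beside those shares. These lists too were chosen with earlier results of these data known. In granule matrix and mediator synthesis 2 of 8 were higher. Hpgds, the haematopoietic prostaglandin D synthase, was at 5.65, 5.86, 5.25, 5.90 and 5.53 in Ezh2-/- tumours, against 4.70, 5.56, 4.65, 4.65 and 4.82 in Ezh2+/+ tumours (log2 fold change 0.76, SE 0.19, adjusted p = 0.0203 from limma). Ezh2+/+ replicate 2 lay within the Ezh2-/- range. Ndst2, which sulphates the heparin of mast cell granules, rose by 0.52 (adjusted p = 0.0393), and Srgn, the serglycin core protein that carries that heparin, had a log2 fold change of 0.38 (adjusted p = 0.162).

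In IgE receptor signalling 3 of 13 measured genes were higher. Inpp5d, the lipid phosphatase SHIP1, rose by 0.84 (adjusted p = 0.0183 from limma), the exchange factor gene Vav1 by 0.72 (adjusted p = 0.0173) and the kinase subunit gene Pik3cd by 0.39 (adjusted p = 0.024). Leukocytes of several kinds express these genes. Fcer1g, the gamma chain shared by Fc receptors, was at 8.68 to 10.29 in Ezh2-/- tumours, against 8.47 to 9.39 in Ezh2+/+ tumours (log2 fold change 0.44, adjusted p = 0.258). Of 12 transcription factors 2 were higher, Runx1 by 1.16 (adjusted p = 0.024) and Stat5b by 0.54 (adjusted p = 0.045), both also expressed in epithelium. Mitf, a factor of mast cells and melanocytes, had a log2 fold change of −0.05 (adjusted p = 0.812).

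Of 7 growth factors and cytokines 2 were lower, Il13 by 0.53 (adjusted p = 0.0294 from limma) and Il3 by 0.36 (adjusted p = 0.0487). Both were among the dimmest genes, and both calls were lost under quantile normalization, cyclic loess and median centring. The log2 fold changes were then −0.37, −0.38 and −0.36 for Il13 and −0.18, −0.18 and −0.19 for Il3. Kitl, the ligand of Kit, was at 7.05 to 7.63 in Ezh2-/- tumours, against 6.81 to 7.95 in Ezh2+/+ tumours (log2 fold change 0.13, adjusted p = 0.682). Among the histamine receptors and enzymes of histamine breakdown 1 of 6 was lower, the diamine oxidase gene Aoc1 (−0.40, adjusted p = 0.0403). Aoc1 was likewise among the dimmest genes and lost its call under the same rescalings (−0.25, −0.27 and −0.23). The receptor gene Hrh4 had a log2 fold change of −0.31 (adjusted p = 0.0901). Beside the members, 7 granule protease genes were measured and 1 was lower, Mcpt2, which kept its call under each of these rescalings. Ctsg, the cathepsin G gene, had a log2 fold change of −0.30 (adjusted p = 0.0621). In granule secretion 0 of 7 passed in limma or the ANOVA, with 2 higher at an unadjusted p under 0.05 in each. Of the 2, Stxbp2, which drives granule fusion, had a log2 fold change of 0.29 (adjusted p = 0.0729), and the syntaxin gene Stx4a one of 0.39 (adjusted p = 0.0912). Of 9 surface receptors 0 passed in limma or the ANOVA, with 5 at an unadjusted p under 0.05 in limma and 3 in the ANOVA. The prostaglandin receptor gene Ptger3 had a log2 fold change of 0.74 (adjusted p = 0.0812) and the cytokine receptor chain gene Csf2rb2 one of 0.63 (adjusted p = 0.0651). In fits that left out 1 tumour, Mcpt2, Vav1 and Inpp5d kept their calls in 10 of 10, Pik3cd in 9, Hpgds and Runx1 in 8, Il13 in 6, and Ndst2, Stat5b, Il3 and Aoc1 in 2.

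Markers of other cells were counted in the same tumours. Basophils share Fcer1a and Ms4a2 with mast cells, and 0 of 4 basophil markers passed in limma or the ANOVA, with 1 lower at an unadjusted p under 0.05 in each. Their mean was 3.92 to 4.12 in Ezh2-/- tumours, against 4.13 to 4.24 in Ezh2+/+ tumours. The basophil proteases Mcpt8 and Prss34 had log2 fold changes of −0.27 each (adjusted p = 0.211 and 0.0957). Of 6 pan-leukocyte markers 1 was higher, Laptm5, a lysosomal membrane protein gene, by 0.89 (adjusted p = 0.00863), and Ptprc, which encodes CD45, had a log2 fold change of 0.55 (adjusted p = 0.0582). Their mean was 6.77 to 7.58 in Ezh2-/- tumours, against 6.39 to 7.03 in Ezh2+/+ tumours.

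Markers of granulocytes, keratinocytes and epithelium had no list in which a gene was called higher. Of 9 neutrophil markers 2 were lower, the calprotectin gene S100a9 by 1.28 (adjusted p = 0.00165 from limma) and Retnlg by 0.62 (adjusted p = 0.017), and the list mean was 4.19 to 4.38 in Ezh2-/- tumours, against 4.34 to 4.89 in Ezh2+/+ tumours. Of 5 eosinophil markers 0 passed in limma or the ANOVA, with 1 and 2 at an unadjusted p under 0.05. The eosinophil peroxidase gene Epx had a log2 fold change of −0.47 (adjusted p = 0.0708) and the chemokine receptor gene Ccr3 one of 0.25 (adjusted p = 0.157), and the list mean was 3.36 to 3.62 in Ezh2-/- tumours, against 3.40 to 3.63 in Ezh2+/+ tumours. Skin is rich in connective tissue mast cells, and its keratinocytes make cornified keratins and filaggrins. Of 6 such keratinocyte markers 2 were lower, Krt1 by 0.67 (adjusted p = 0.0201) and Flg2 by 0.33 (adjusted p = 0.0307), and the list mean was 4.25 to 4.53 in Ezh2-/- tumours, against 4.48 to 5.35 in Ezh2+/+ tumours. Of 4 epithelial markers 0 passed in limma or the ANOVA, with 2 and 1 lower at an unadjusted p under 0.05, among them the luminal keratins with −0.30 for Krt8 (adjusted p = 0.0867) and −0.33 for Krt18 (adjusted p = 0.142).

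Levels of stromal cell markers are given per tumour beside those of the proteases, and differences between tumours of 1 genotype were not tested. Of 5 adipocyte markers 0 passed in limma or the ANOVA, with 3 and 2 at an unadjusted p under 0.05, and their mean was 7.51, 4.89, 5.02, 6.71 and 6.04 in Ezh2-/- tumours, against 5.03, 4.87, 5.09, 4.75 and 5.80 in Ezh2+/+ tumours. Ezh2-/- tumours 1, 4 and 5 were the 3 highest, as for the proteases, and the highest Ezh2+/+ tumour was replicate 5 for both. The lipid droplet gene Cidec had a log2 fold change of 1.42 (adjusted p = 0.0503) and the adiponectin gene Adipoq one of 1.29 (adjusted p = 0.069).

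Fibroblast markers were higher in 5 of 6 cases, with a mean of 8.41, 7.52, 7.39, 8.70 and 8.12 in Ezh2-/- tumours, against 6.57, 7.23, 5.64, 5.30 and 6.59 in Ezh2+/+ tumours. Here all 5 Ezh2-/- tumours lay above the Ezh2+/+ tumours, and replicates 1, 4 and 5 were again the highest. The matrix genes Lum and Col1a1 rose by 2.57 and 1.90 (adjusted p = 0.00347 and 0.00299 from limma), and the surface antigen gene Thy1 by 1.00 (adjusted p = 0.00478).

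Macrophage markers were higher in 3 of 6 cases, with a mean of 8.22, 7.86, 7.30, 8.24 and 8.06 in Ezh2-/- tumours, against 7.32, 7.56, 6.84, 6.85 and 7.40 in Ezh2+/+ tumours. Ezh2-/- tumours 1, 4 and 5 were the 3 highest here too, as for the proteases. The growth factor receptor gene Csf1r rose by 0.92 (adjusted p = 0.0113 from limma), Adgre1, which encodes F4/80, by 0.95 (adjusted p = 0.0198) and the complement gene C1qc by 0.76 (adjusted p = 0.0191). Endothelial markers were higher in 5 of 8 cases, with a mean of 6.67, 6.37, 6.41, 6.72 and 6.12 in Ezh2-/- tumours, against 5.93, 5.95, 5.81, 5.49 and 5.63 in Ezh2+/+ tumours. Unlike the proteases, they were lowest within the Ezh2-/- genotype in tumour 5, below tumours 2 and 3. Erg, an endothelial transcription factor gene, rose by 0.96 (adjusted p = 0.0008), the angiopoietin receptor gene Tek by 1.01 (adjusted p = 0.00595) and the endomucin gene Emcn by 0.74 (adjusted p = 0.0184).

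Of 5 skeletal muscle markers 0 passed in limma or the ANOVA, with 3 and 0 at an unadjusted p under 0.05, and Acta1 and the myosin gene Myh4 had log2 fold changes of 2.00 and 2.01 (adjusted p = 0.0966 and 0.124). They were high in Ezh2-/- tumours 1 and 5, with means of 9.26 and 8.12. In Ezh2-/- tumour 4, where Mcpt4 was highest, their mean was 4.58, within the 4.16 to 5.07 of Ezh2+/+ tumours. The part of fat, stroma or muscle in the protease levels was not tested.

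**Figure D4:**
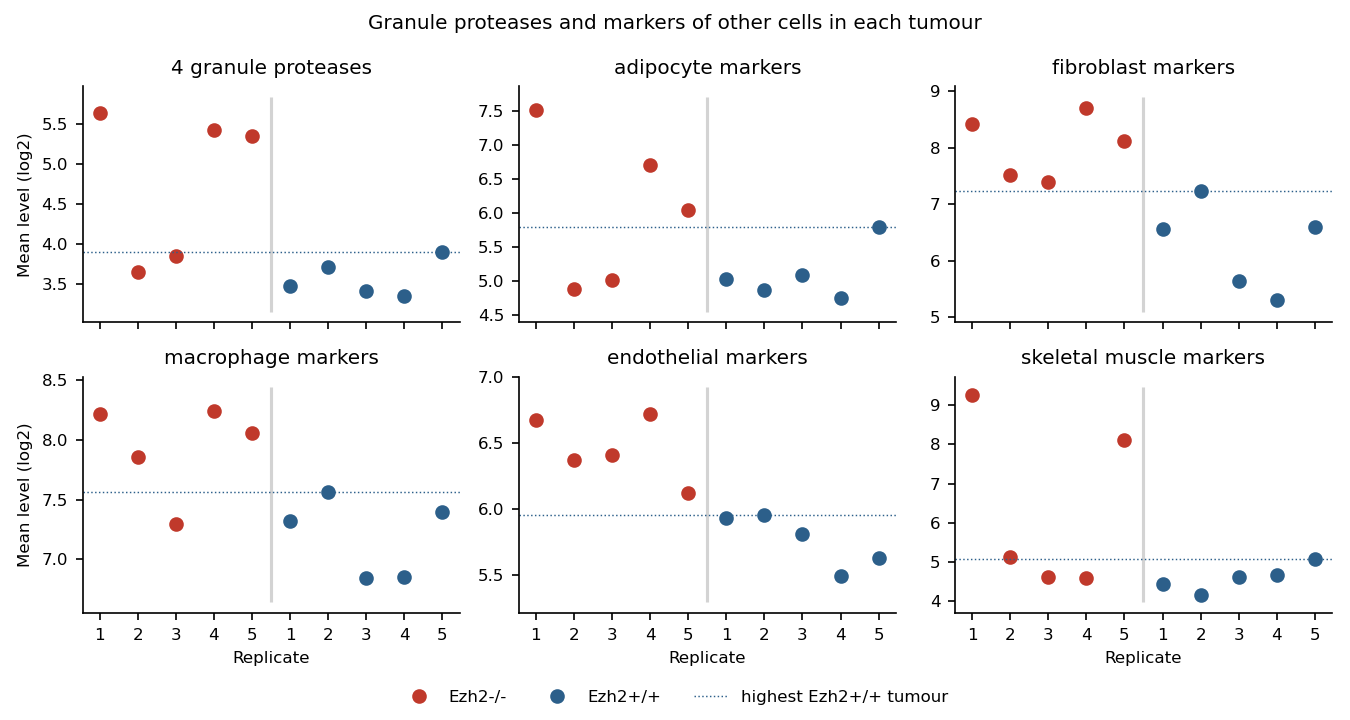
Mean level (log2, vertical axis) of the 4 granule proteases and of marker lists of 5 other cell types in each tumour (horizontal axis, Ezh2-/- then Ezh2+/+ replicates), with the dotted line at the highest Ezh2+/+ tumour. Ezh2-/- tumours 1, 4 and 5 are highest for proteases and for adipocyte, fibroblast and macrophage markers. Muscle markers are high in 1 and 5 but at 4.58 in tumour 4.

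The genes outside the members whose profile was closest to the mean profile of the 4 proteases were named by the root mean square difference of centred levels over the 10 tumours. Tppp3, which encodes a tubulin polymerization protein, came closest at 0.155, followed by the synuclein gene Sncg (0.183), the chemokine gene Pf4 (0.224), the secreted protein gene Pi16 (0.237), the dipeptidase gene Dpep1 (0.239) and the lectin gene Cd209d (0.258). The proteases that make up the mean were each farther from it than these genes, Mcpt4 at 0.36, Cma1 at 0.339, Tpsb2 at 0.472 and Cpa3 at 0.609. The protease mean itself had an SD of 0.91 over the 10 tumours. Tppp3 was at 7.75, 5.91, 5.89, 7.58 and 7.51 in Ezh2-/- tumours, against 5.45, 6.09, 5.46, 5.64 and 6.39 in Ezh2+/+ tumours. As for the proteases, Ezh2-/- tumours 1, 4 and 5 were high and tumours 2 and 3 lay in the Ezh2+/+ range. Of the members, Kit at 0.90, Gata2 at 0.962 and Hdc at 0.976 were farthest from the protease profile. Levels were centred but not scaled, so a gene that varies little also lies far from it, and a large value does not mean an opposed profile.

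Scaling changed how many members were called. Among all called genes 49.1% were higher without further scaling, 60.3% after quantile normalization and 84.9% after median centring, and this last scaling put the all-gene median at 0.20. After median centring 6 of the 10 mast cell genes were higher (Mcpt4, Cma1, Tpsb2, Cpa3, Fcer1a and Mrgprb1) and 0 lower, while 5219 of the 22180 genes were higher.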

How the data were processed

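The authors processed the scans in Affymetrix Expression Console and deposited 1 gene-level value per probe set and tumour. The log base and algorithm are not given in the sources used here, and the deposited values, 0.595 to 13.18, were taken as log2. Of 41345 probe sets 23521 carried 1 gene symbol in the platform annotation, 1820 several and 16004 were not listed there. Of the 23521, 23328 matched a RefSeq gene and took its symbol, and the others kept the platform symbol. Together they gave 22180 genes, and for the 1082 genes with several probe sets the one with the highest mean over the 10 arrays was used. Depth has no counterpart on arrays, and the number of arrays limits the precision. Genotypes were compared with limma 3.58.1 (R 4.3.3, default prior, genotype only, two-sided, Benjamini-Hochberg over all genes). The labels call the tumours biological replicates, and p-values measure the spread between them. The test was checked on simulated data. Alternatives were the methods' one-way ANOVA with and without its thresholds, an intensity trend with robust prior, array weights, 3 rescalings, leaving out the 40% dimmest genes, probe set means, a replicate block and leaving out each tumour. Leaving out both tumours with high muscle transcripts was chosen after seeing the data. The members and lists were chosen with earlier results of these data known. Named are all 10 members, of each other list the genes that passed (up to 4, or up to 3 of cell type lists, by smallest p, and at least the 2 with the smallest p), the 6 genes most like the protease mean, and Ezh2. Other pathway genes, namely Tpsab1, Srgn, Fcer1g, Mitf, Kitl and the genes between Cma1 and Mcpt4, were named after their values were seen. Plots were made in Python 3.11.15 (matplotlib 3.10.9).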

Additional observations from a re-analysis of the deposited data

Results flagged for a closer look

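In 62 named genes, both genotypes were examined for a tumour far from the other 4 of its group (Dixon's ratio of the gap to the range, above 0.71 for 5 tumours). Chance marks about 1 in 20 of the 124 groups, and 5 were marked, none of them in a mast cell member. All 5 were single high Ezh2+/+ tumours. Ezh2+/+ replicate 2 was at 5.56 for Hpgds (gap 0.815 of the range) and at 6.24 for Inpp5d (0.718). Ezh2+/+ replicate 5 was at 5.39 for Sncg (0.732) and at 4.08 for Cd209d (0.773), both named for their likeness to the protease profile. Ezh2+/+ replicate 3 was at 3.75 for Ctsg (0.711).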

How the results depend on the processing

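Counts are given as higher and lower in Ezh2-/- tumours. For the 10 members they were 1 and 1. They were 0 and 0 with the methods' ANOVA after adjustment, 3 and 0 at the study's thresholds, 2 and 1 with array weights, 3 and 0 after quantile normalization, 2 and 0 after cyclic loess, 6 and 0 after median centring, and 0 and 0 without the 40% dimmest genes, where only 4 members were tested. Of these 4, Cpa3 was kept by its mean over all tumours, while its Ezh2+/+ tumours lay below the cut. Without both tumours high in muscle transcripts the counts were 1 and 0, the member higher being Kit and not Mcpt4. Replicate numbers did not pair the tumours (correlations of same-numbered deviations −0.042 to 0.34, 2 of 5 tumours closest to their own number). With a replicate block 5 members were higher and 0 lower. Without single tumours, 1 to 3 were higher and 0 to 1 lower. For the 69 pathway genes (7 and 4), the ANOVA after adjustment gave 1 and 2, the study's thresholds 2 lower, quantile normalization and cyclic loess 1 lower each, median centring 26 and 1, leaving out dim genes 0 lower, the replicate block 13 higher, and leaving out single tumours 3 to 9 and 1 to 6. For all genes (1617 and 1676), the ANOVA gave 862 higher, the study's thresholds 1063 and 950, array weights 2434 higher, quantile normalization 882 lower, cyclic loess 996 lower, median centring 5219 and 927, leaving out dim genes 535 lower, the replicate block 2552 higher, and leaving out single tumours 748 to 2519 and 983 to 1920, the lowest without Ezh2-/- replicate 4 and the highest without Ezh2-/- replicate 5. The log2 fold change of Ms4a2 turned to 0.03 after quantile normalization, 0.02 after cyclic loess and 0.05 after median centring. That of Gata2 turned to 0.10 after median centring and ranged from −0.34 to 0.20 when single tumours were left out, being 0.11 without Ezh2-/- replicate 2 and positive also without replicates 2 (0.20) and 3 (0.10) of Ezh2+/+. The other 8 members kept their sign throughout. The causes were not tested. Members near the floor of the array can show little further fall, and whether this bears on any member was not tested.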
